A study of Mus musculus with 24 samples.

Results

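The chemokine and chemoattractant receptors described here are 9 G protein-coupled receptor genes, Cx3cr1, Ccr1, Ccr2, Ccrl2, Cxcr4, Fpr1, Fpr2, C5ar1 and C3ar1. They were taken by symbol from an RNA sequencing table of 24273 genes, and all 9 were present and were among the 13901 genes tested. The libraries came from mouse bone marrow-derived macrophages (BMDMs), cells grown in medium conditioned by L cells. The control cells were LysM-Cre and the others were LysM-Cre with both Fos alleles floxed (FosKO), so by their labels every library carried a Cre recombinase gene placed at the myeloid gene Lyz2, which was not checked in these data. The series' design text gives the controls as LysM-Cre alone, whereas the study's text gives them a floxed Fos allele as well. Cells of each genotype were left untreated (0 h) or given lipopolysaccharide (LPS, a bacterial product sensed by TLR4) at 100 ng/ml for 0.5, 1 or 2 h, with 3 libraries in each of the 8 groups and 24 in all. The methods call the libraries biological replicates, and the labels do not say that the 3 libraries of a group came from separate mice, so p-values measure the spread between these libraries.

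Values are log2 normalised expression values, on which a difference of 1 is a doubling, and adjusted p-values are from limma with Benjamini-Hochberg adjustment over all 13901 genes. A gene is called when its adjusted p is under 0.05. The macrophage marker genes Adgre1, Csf1r and Cd68 lay between 14.61 and 15.38 in every library. For FosKO against LysM-Cre, 3 of 8 macrophage markers were called higher (19.48% of all genes) and 4 were called lower (15.91%) at 0 h, and 4 (24.36%) and 0 (20.26%) at 2 h. Among them Mertk, an apoptotic cell receptor, was higher by 0.97 at 0 h and by 1.65 at 2 h and Fcgr1, an IgG receptor, by 0.65 and 0.73, while the other called differences at 0 h lay between -0.22 (Cd14) and 0.21 (Cd68). Fos goes against the label. Its untreated mean was 11.11 for LysM-Cre and 12.60 for the libraries labelled FosKO, and it was higher there by 1.49 when untreated, by 1.64 after 1 h of LPS and by 3.29 after 2 h, and its difference after 0.5 h was -0.77. The part of Fos between the loxP sites was not given in the sources used here, so this gene-level value does not check the deletion. Untreated Lyz2 was at 10.94 for LysM-Cre and 16.10 for the libraries labelled FosKO. It was called higher in the latter at every time, so the genotypes also differed at the gene said to carry Cre. The cause was not tested. Rn18s-rs5, a gene of 18S ribosomal RNA, had values of 16.65 to 17.00 in a low set of 5 libraries, and of 18.57 to 19.39 in a high set of 19. The low set was replicate 3 of LysM-Cre and replicate 1 of FosKO at 0.5 h, and replicates 2 and 3 of LysM-Cre and replicate 1 of FosKO at 1 h, so genotype differences of the 9 receptors at these times are also given within each set. No untreated library was in the low set, so changes with LPS could be repeated in the high set alone, where each receptor called at 0.5 or 1 h was called again. At 1 h the high set holds 1 LysM-Cre library, which was assumed to vary like the other groups.

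Chemoattractant receptors sit in the plasma membrane of leukocytes and turn a gradient of a secreted ligand into directed movement, mostly through Gi proteins. Chemokine receptors bind small secreted proteins. CCR2 responds to CCL2 and brings monocytes out of bone marrow into inflamed tissue, CCR1 responds to CCL3 and CCL5, CX3CR1 binds the membrane-anchored chemokine CX3CL1, and CXCR4 binds CXCL12 and holds leukocytes in bone marrow. CCRL2 is an atypical receptor that binds chemerin without a known signal of its own. FPR1 and FPR2 sense formylated peptides from bacteria and mitochondria, and FPR2 also senses lipids and proteins such as serum amyloid A and annexin A1. C5AR1 and C3AR1 are receptors for the complement fragments C5a and C3a.

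On the GRCm38 build with GENCODE annotation, 4 of the 9 genes lie on chromosome 9, namely Cx3cr1, Ccr1, Ccr2 and Ccrl2. Ccr1 (chr9:123962124-123968692, minus strand) and Ccr2 (chr9:124101950-124113557, plus strand) are 133.3 kb apart. Fpr1 (chr17:17876471-17883940, minus strand) and Fpr2 (chr17:17887824-17893952, plus strand) are divergent neighbours on chromosome 17, with 3.9 kb between them. Cxcr4 is at chr1:128588199-128592293, C5ar1 at chr7:16246743-16259540 and C3ar1 at chr6:122847138-122856161, all on the minus strand, and Ccrl2 is at chr9:111054486-111057519 on the same strand. Cx3cr1 is annotated at chr9:119901616-120069879 on the minus strand. All 9 are protein-coding genes, with the identifiers ENSMUSG00000052336 (Cx3cr1), ENSMUSG00000025804 (Ccr1), ENSMUSG00000049103 (Ccr2), ENSMUSG00000043953 (Ccrl2), ENSMUSG00000045382 (Cxcr4), ENSMUSG00000045551 (Fpr1), ENSMUSG00000052270 (Fpr2), ENSMUSG00000049130 (C5ar1) and ENSMUSG00000040552 (C3ar1). Fpr2 shares 48 exonic bases with Fpr3 on the same strand. The mouse formyl peptide receptors are related genes whose likeness was not measured here, so Fpr1 and Fpr2 values may include reads of relatives. Cx3cr1 shares 78 exonic bases with Gm33858 on the opposite strand, and the methods call the reads strand-specific without saying whether counting used strand.

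Promoter sequence is shown for the receptors whose mRNA moved most and for C3ar1, which was not called between genotypes at any time without quantile normalisation. It was read from RefSeq windows around the annotated starts on GRCm38.p6, and each stretch is the 100 bases before the annotated start, 5′ to 3′ on the gene's strand. The windows were searched on both strands for TGANTCA, a core site of AP-1, the dimer that FOS forms with JUN, for GGGNNNNNCC, a loose NF-kB site, and for the core of an interferon response site, 2 runs of GAAA with any 2 bases between them. Matches are in capitals, and the AP-1 and NF-kB matches of C3ar1 do not overlap.
Ccrl2: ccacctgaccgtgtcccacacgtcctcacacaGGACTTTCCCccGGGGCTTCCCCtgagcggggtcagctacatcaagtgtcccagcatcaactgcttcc
C3ar1: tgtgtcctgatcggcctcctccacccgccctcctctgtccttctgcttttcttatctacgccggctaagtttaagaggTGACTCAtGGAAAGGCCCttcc
Fpr1: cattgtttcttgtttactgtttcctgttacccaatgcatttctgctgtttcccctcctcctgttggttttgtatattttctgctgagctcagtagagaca
Fpr2: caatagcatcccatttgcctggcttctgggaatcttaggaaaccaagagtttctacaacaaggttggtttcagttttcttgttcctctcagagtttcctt
Cxcr4: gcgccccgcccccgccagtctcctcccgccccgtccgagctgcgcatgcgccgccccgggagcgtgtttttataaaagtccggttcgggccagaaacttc

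The stretches are chr9:111057519-111057618 (minus strand) for Ccrl2, chr6:122856158-122856257 (minus strand) for C3ar1, chr17:17883940-17884039 (minus strand) for Fpr1, chr17:17887724-17887823 (plus strand) for Fpr2 and chr1:128592300-128592399 (minus strand) for Cxcr4. The AP-1 letters occurred in 1 of the 11 promoter windows of the 9 genes, that of C3ar1, 22 to 16 bases before the start, against 7.81% of 32851 windows over all genes. The NF-kB letters occurred in windows of 4 of the 9 genes, C3ar1, Ccr1, Ccrl2 and Cx3cr1, against 50.8% of all windows. In the Ccrl2 window shown here, 3 matches stood between 68 and 46 bases before the start, the last 2 of them overlapping. The interferon response letters occurred in 0 of the 11 windows, against 3.44% of all windows. A match is a description of letters, and the windows without one say nothing about binding elsewhere.

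The levels of the 9 mRNAs spanned a wide range before LPS. On a log2 scale of normalised value per kb of exon, the order in untreated LysM-Cre cells was C3ar1 (13.15 ± 0.01, SD, n = 3), C5ar1 (12.62 ± 0.02), Ccrl2 (8.96 ± 0.08), Cxcr4 (8.56 ± 0.06), Ccr1 (8.55 ± 0.07), Ccr2 (7.32 ± 0.09), Cx3cr1 (6.51 ± 0.21), Fpr2 (5.25 ± 0.20) and Fpr1 (3.81 ± 0.07). The complement receptors were thus the most abundant and the formyl peptide receptors the least, and among neighbours in this order Cxcr4 and Ccr1 did not differ beyond their spread. In untreated libraries labelled FosKO the order was the same except that Fpr2 (6.52 ± 0.38) stood above Cx3cr1 (5.84 ± 0.08) and within the spread of Ccr2 (6.67 ± 0.15), and Cxcr4 and Ccr1 again did not differ beyond their spread. All values from here on are per gene and not per length.

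**Figure D1:**
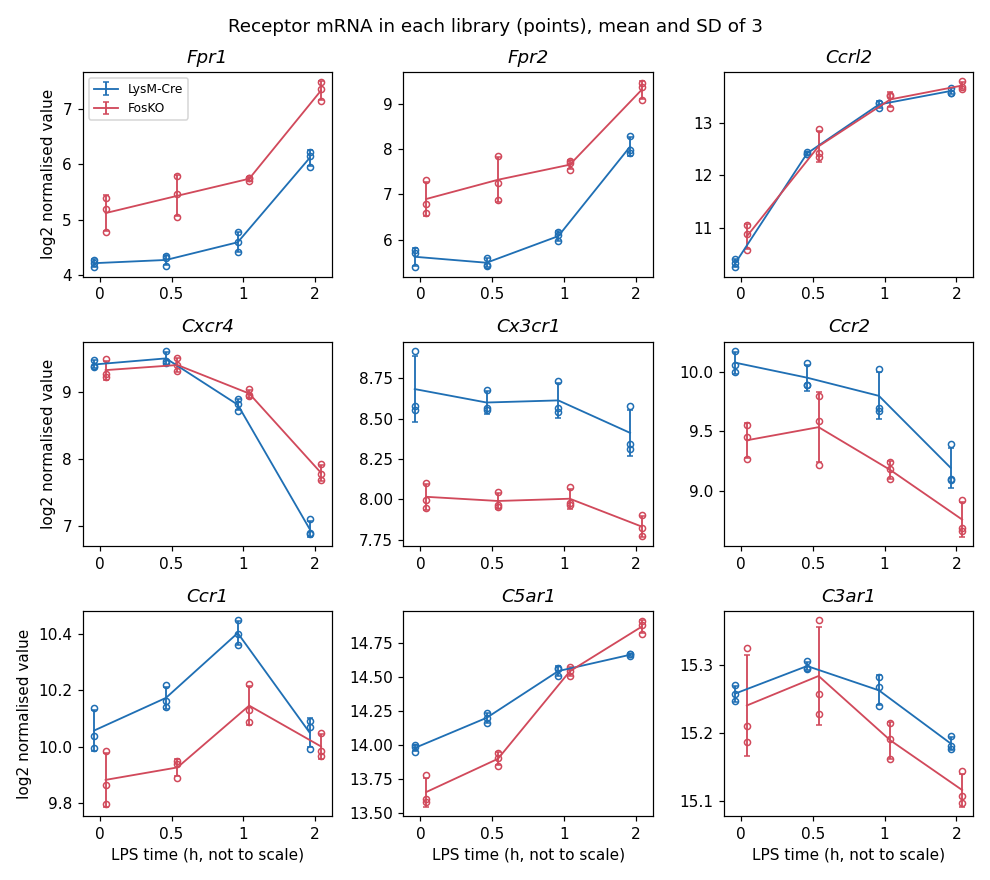
Log2 normalised value of each receptor mRNA (vertical axis, a separate range for each gene) at 0, 0.5, 1 and 2 h of LPS (horizontal axis, not to scale). Open points are the 24 libraries, and lines with bars are the mean and SD of 3 libraries, blue for LysM-Cre and red for FosKO. Fpr1 and Fpr2 of FosKO lie above those of LysM-Cre at all 4 times, Cx3cr1 and Ccr2 lie below, and the Cxcr4 lines part at 2 h.

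The first comparison asked which receptors differed between the genotypes at each time. The formyl peptide receptors were higher in the libraries labelled FosKO at all 4 times, Cx3cr1 and Ccr2 were lower at all 4 times, and Cxcr4 was called higher at 2 h. At 0 h, 3 of the 9 were called higher (Ccrl2, Fpr1 and Fpr2), where 19.48% of all tested genes were called higher, and 4 were called lower (Cx3cr1, Ccr1, Ccr2 and C5ar1), where 15.91% of all genes were. At 0.5 h 2 were higher (21.24% of all genes) and 4 lower (19.68%), at 1 h 2 were higher (17.98%) and 3 lower (15.88%), and at 2 h 4 were higher (24.36%) and 2 lower (20.26%). The median difference of the 9 was -0.08 (untreated), -0.10 (0.5 h), -0.00 (1 h) and 0.10 (2 h), and over all tested genes it lay between -0.00 and 0.00. After quantile normalisation the share of higher genes among all called genes moved from 55.1% to 45.3% (0 h), from 51.9% to 45.6% (0.5 h), from 53.1% to 42.8% (1 h) and from 54.6% to 43.0% (2 h).

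Fpr2 had the largest estimated genotype difference of the 9 at each time, though its 95% confidence interval overlapped that of Fpr1 each time. At 0 h it was at 5.76, 5.40 and 5.71 in the LysM-Cre libraries and at 6.59, 6.78 and 7.32 in those labelled FosKO. The FosKO libraries were all higher, and the groups did not overlap at any time. The difference was 1.27 ± 0.19 (SE, 2.42-fold, adjusted p = 3.01e-05, limma) before LPS, 1.83 (3.56-fold) at 0.5 h, 1.58 (2.98-fold) at 1 h, and 1.25 (2.38-fold) by 2 h. At 2 h the LysM-Cre libraries were at 7.91, 7.97 and 8.28 and the FosKO libraries at 9.38, 9.09 and 9.45. Within the high 18S libraries the Fpr2 difference was 1.84 at 0.5 h and 1.75 at 1 h, and within the low 18S libraries 1.81 and 1.41. Fpr1, its neighbour, was at 4.22, 4.14 and 4.27 in LysM-Cre and 5.19, 4.77 and 5.40 in FosKO at 0 h. Again every FosKO library was above every LysM-Cre library, and this held at each time. The difference was 0.91 ± 0.16 (SE, 1.88-fold, adjusted p = 0.000143, limma) before LPS, 1.163 after 0.5 h, 1.15 after 1 h and 1.22 ± 0.16 (2.34-fold, adjusted p = 2.92e-06) at 2 h. Within the high 18S libraries it was 1.17 and 0.96 at 0.5 and 1 h, and within the low 18S libraries 1.15 and 1.26.

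Because FPR1 and FPR2 are receptors of neutrophils and monocytes as well as of macrophages, marker genes of these cells were read beside them. Of 5 tested neutrophil markers, Csf3r, the G-CSF receptor, was called higher by 1.099 at 0 h (19.48% of all genes were called higher), and Ngp, Ltf, S100a8 and S100a9 were called lower (15.91%). The summed linear level of the 11 neutrophil markers in the table ranged from 625 to 734 in LysM-Cre and from 1209 to 1487 in FosKO at 0 h, while the defining genes Ly6g and Elane lay between -2.22 and -2.195 in every library, at the bottom of the table's range. Csf3r, at a mean log2 value of 9.21 in LysM-Cre and 10.31 in FosKO, made up most of this sum, so that the higher sum is that of 1 gene, against which the 4 other tested markers moved. Of 7 tested monocyte markers, 5 were called higher for FosKO before LPS (19.48% of all genes) and after 0.5 h (21.24%), 4 after 1 h (17.98%) and 3 after 2 h (24.36%), and none was called lower. Among them Ms4a4c was higher by 1.69 and Ly6c2 by 0.75 at 0 h. The summed level of the 8 monocyte markers ranged from 645 to 763 in LysM-Cre and from 1441 to 2577 in FosKO at 0 h, and Ms4a4c, at a mean log2 value of 8.96 and 10.64, made up most of it. The summed level of 9 lymphoid markers lay between 38.4 and 57.9 over all libraries. Of 4 tested dendritic cell markers, 1 was called lower at 0 h (15.91% of all genes), Itgax at -0.25, and 0 higher (19.48%). The summed level of the 7 in the table ranged from 2861 to 3149 in LysM-Cre and from 2340 to 2819 in FosKO at 0 h. Itgax, at a mean log2 value of 11.54 and 11.29, made up most of it. In bulk RNA, more cells of a type and more RNA per cell cannot be told apart, and the part of these markers in the receptor differences was not tested.

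Cx3cr1 and Ccr2 moved the other way. Cx3cr1 was at 8.92, 8.55 and 8.58 in LysM-Cre and 8.10, 7.95 and 7.999 in FosKO at 0 h, so that each FosKO library was below each LysM-Cre library. The difference was -0.67 ± 0.08 (SE, 1.59-fold lower, adjusted p = 3.48e-06, limma) before LPS, -0.61 after 0.5 h and after 1 h, and -0.58 after 2 h, without overlap at any time. Within the high 18S libraries it was -0.61 and -0.71 at 0.5 and 1 h, and within the low ones -0.61 and -0.59. Ccr2 was at 10.06, 9.99 and 10.17 in LysM-Cre and 9.45, 9.26 and 9.56 in FosKO at 0 h. The groups were again apart, and the difference was -0.65 ± 0.12 (SE, 1.57-fold lower, adjusted p = 0.000321, limma) before LPS, -0.42 after 0.5 h (adjusted p = 0.0109), -0.62 after 1 h and -0.43 after 2 h (adjusted p = 0.00722). Within the high 18S libraries the Ccr2 difference was -0.38 at 0.5 h and -0.53 at 1 h, and within the low ones -0.48 and -0.62.

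The call of Ccr2 at 0.5 h was lost when only high 18S libraries entered (adjusted p = 0.0598, limma), when only the compared groups entered (0.0573), without LysM-Cre replicate 3 (-0.35, adjusted p = 0.0541) and without FosKO replicate 2 (-0.26, adjusted p = 0.094). At 2 h it was lost without LysM-Cre replicate 3 (-0.34, adjusted p = 0.0514).

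Ccr1 differed less. It was at 10.14, 10.00 and 10.04 in LysM-Cre and 9.80, 9.86 and 9.98 in FosKO at 0 h, a difference of -0.18 ± 0.05 (SE, adjusted p = 0.00555, limma), and the groups did not overlap, though the highest FosKO library lay close to the lowest LysM-Cre library. At 0 h the call was lost when only the compared groups entered the fit (adjusted p = 0.0539). Ccr1 had a difference of -0.25 at 0.5 h (-0.27 within the high and -0.20 within the low 18S libraries) and of -0.26 at 1 h (-0.34 and -0.16), and at 2 h its difference of -0.05 (95% CI -0.15 to 0.05) was not called and the groups overlapped.

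Ccr1 and Ccr2 belong to a run of CC receptor genes on chromosome 9 that also holds Ccr1l1 and Ccr3, genes that were looked at for their position. Ccr3, an eotaxin receptor, was lower by 0.41 at 0 h (adjusted p = 0.0179, limma). Ccr1l1, which lies between Ccr1 and Ccr3, had a difference of -0.03 and was not called. Its mean log2 values at 0 h were low, 3.63 in LysM-Cre and 3.60 in FosKO, so a difference may be understated. At 2 h, Ccr2 was the 1 gene of these 4 still called lower, while Ccr3 was at -0.31 without overlap and was not called (adjusted p = 0.0646).

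**Figure D2:**
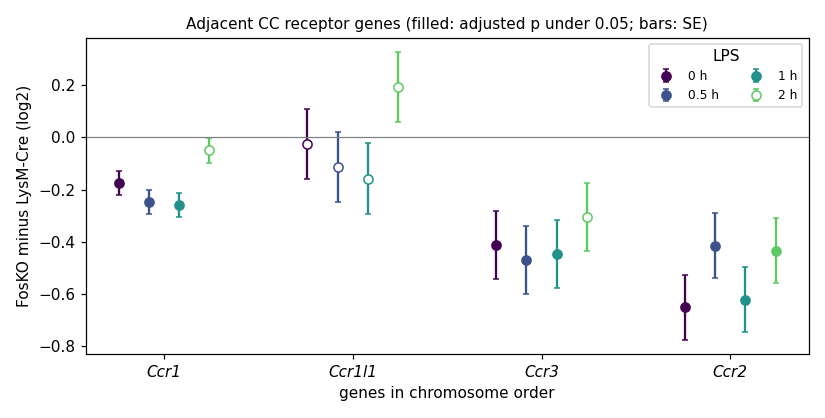
Difference of FosKO minus LysM-Cre on the log2 scale (vertical axis) for 4 CC receptor genes in their order on chromosome 9 (horizontal axis), at 0, 0.5, 1 and 2 h of LPS from dark to light. Points are estimates from 3 libraries against 3, bars are standard errors, and filled points have an adjusted p under 0.05. Ccr1, Ccr3 and Ccr2 are filled and lie below 0 at 0 h, and Ccr2 alone is filled at 2 h.

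The remaining receptors differed at some times only. Ccrl2 was at 10.42, 10.33 and 10.26 in LysM-Cre and 10.59, 10.89 and 11.06 in FosKO at 0 h, a difference of 0.51 ± 0.11 (SE, 1.42-fold, adjusted p = 0.00117, limma) without overlap. At 0.5, 1 and 2 h its difference was 0.13, 0.10 and 0.10, with overlapping groups and no call, and within the high and low 18S libraries it was 0.23 and -0.06 after 0.5 h, and 0.24 and -0.09 after 1 h. Cxcr4 was at 9.37, 9.49 and 9.39 in LysM-Cre and 9.23, 9.27 and 9.50 in FosKO at 0 h, overlapping ranges with a difference of -0.08 that was not called. At 2 h it was at 6.88, 6.89 and 7.10 in LysM-Cre and 7.78, 7.69 and 7.92 in FosKO, so that the groups stood apart by 0.84 ± 0.08 (SE, 1.79-fold, adjusted p = 3.62e-08, limma). At 0.5 h the Cxcr4 difference was -0.10, not called (-0.09 within the high and -0.12 within the low 18S libraries). At 1 h the groups did not overlap, and the difference of 0.17 (0.27 and 0.10) had an unadjusted p of 0.0458 and was not called (adjusted p = 0.11, limma), though it was with the replicate block over all groups (adjusted p = 0.0489).

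The complement receptors had the most precise values. C5ar1 was at 14.00, 13.95 and 13.99 in LysM-Cre and 13.78, 13.59 and 13.60 in FosKO at 0 h, lower in each FosKO library with a difference of -0.32 ± 0.04 (SE, adjusted p = 2.87e-06, limma). It was -0.30 at 0.5 h (-0.30 within the high and -0.29 within the low 18S libraries), -0.00 at 1 h (0.03 and -0.02) and 0.21 ± 0.04 (adjusted p = 0.000295) at 2 h, when the LysM-Cre libraries were at 14.67, 14.65 and 14.66 and the FosKO libraries at 14.91, 14.82 and 14.88. The sign of the called C5ar1 difference was therefore opposite at 0 h and at 2 h. After quantile normalisation the 0 h difference was -0.50, still called, the 2 h difference was 0.05 and was not called (adjusted p = 0.375), and that at 1 h was -0.15 and was called (adjusted p = 0.00937). C3ar1 was not called at any time. Its differences were -0.02 before LPS (95% CI -0.09 to 0.06), -0.01 after 0.5 h, -0.07 after 1 h and -0.07 after 2 h (95% CI -0.14 to 0.01). Within the high and low 18S libraries they were 0.01 and -0.07 after 0.5 h, and -0.04 and -0.11 after 1 h. Quantile normalisation alone called it lower at all 4 times, with differences of -0.11, -0.12, -0.19 and -0.39 in time order.

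**Figure D3:**
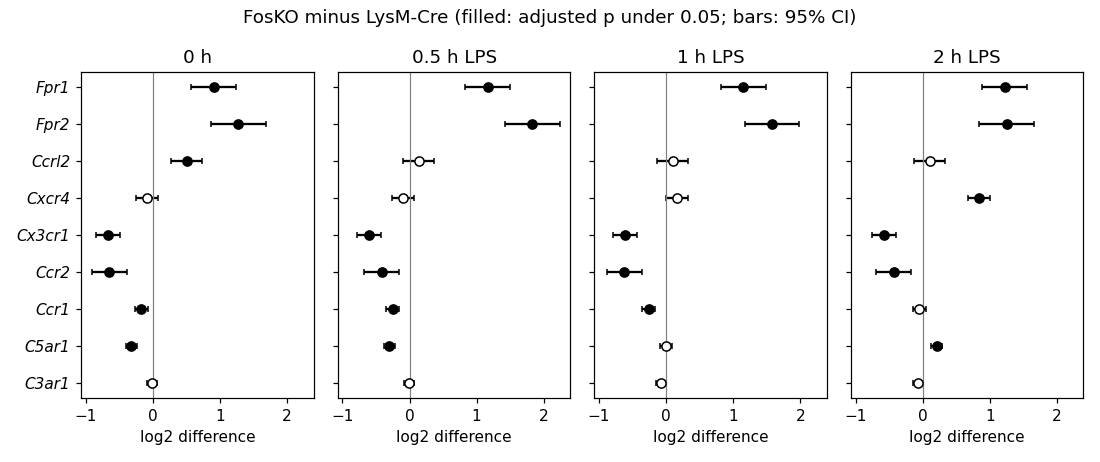
Difference of FosKO minus LysM-Cre on the log2 scale (horizontal axis) for each receptor (rows) at 0, 0.5, 1 and 2 h. Points are estimates from 3 libraries against 3, bars are 95% confidence intervals, and filled points have an adjusted p under 0.05. Fpr1 and Fpr2 stand between 0.91 and 1.83 at all 4 times, Cx3cr1 and Ccr2 stand below 0, and C3ar1 is open throughout.

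The second comparison followed the response to LPS within each genotype. Ccrl2 rose most and from the first time, and the formyl peptide receptors rose by 2 h. C5ar1 was called higher at each time, and Cxcr4 and Ccr2 fell. In LysM-Cre, 2 of the 9 receptors were called higher at 0.5 h (5.093% of all genes) and 0 lower (2.151%), 3 higher (19.23%) and 1 lower (16.52%) at 1 h, and 4 higher (30.56%) and 3 lower (30.21%) at 2 h. In the libraries labelled FosKO, 2 were called higher at 0.5 h (4.453%) and 0 lower (1.468%), 5 higher (17.60%) and 1 lower (15.01%) at 1 h, and 5 higher (32.59%) and 3 lower (29.54%) at 2 h. The LPS comparisons of a genotype share its 0 h libraries. By limma, 3 members had an unadjusted p under 0.05 at 0.5 h in each genotype. Over these 6 comparisons, the share of higher genes among all called genes ran from 50.3% to 75.2%, and after quantile normalisation from 35.3% to 50.3%.

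Ccrl2 rose in both genotypes. In LysM-Cre it went from 10.42, 10.33 and 10.26 at 0 h to 12.40, 12.44 and 12.41 at 0.5 h and 13.57, 13.57 and 13.66 at 2 h. No library with LPS overlapped the 0 h libraries. The rise was 2.08 ± 0.11 (SE, 4.23-fold, adjusted p = 1.16e-11, limma) at 0.5 h, 3.01 at 1 h and 3.26 ± 0.11 (9.59-fold, adjusted p = 5.1e-16) at 2 h. In the libraries labelled FosKO it rose by 1.71 (3.27-fold) at 0.5 h, 2.60 at 1 h and 2.86 (7.26-fold) at 2 h, to 13.65, 13.68 and 13.79. A window of Ccrl2 held 3 matches to the NF-kB letters, which also occurred in windows of C3ar1, Ccr1 and Cx3cr1 and in 50.8% of all windows. Any part of these letters in the rise was not tested.

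Fpr1 and Fpr2 rose later. In LysM-Cre, Fpr1 was at 6.23, 5.96 and 6.16 at 2 h, above all 0 h libraries, a rise of 1.90 ± 0.16 (SE, 3.74-fold, adjusted p = 1.61e-09, limma), and Fpr2 rose by 2.43 ± 0.19 (5.39-fold, adjusted p = 7.47e-10). In FosKO, Fpr1 was at 7.37, 7.16 and 7.49 at 2 h, a rise of 2.22 (4.66-fold), and Fpr2 rose by 2.41 (5.31-fold). The 2 h level of Fpr1 in LysM-Cre was thus above the 0 h level in FosKO, whose highest library was at 5.40. At 1 h, the changes of Fpr1 and Fpr2 were 0.62 and 0.76 in FosKO, both called, and 0.38 (adjusted p = 0.0729) and 0.46 (adjusted p = 0.0761) in LysM-Cre, not called. In LysM-Cre at 1 h the count of called receptors was 7, not 4, with either replicate block or with only the compared groups in the fit, and 8 after quantile normalisation.

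C5ar1 rose from 0.5 h. In LysM-Cre it was higher by 0.22 at 0.5 h, 0.56 at 1 h and 0.68 ± 0.04 (SE, 1.61-fold, adjusted p = 5.33e-12, limma) at 2 h. In FosKO it was higher by 0.24 at 0.5 h, 0.88 at 1 h and 1.21 ± 0.04 (2.31-fold, adjusted p = 3.88e-16) at 2 h. The 0.5 h call was lost after quantile normalisation in LysM-Cre (0.01, adjusted p = 0.926) and in FosKO (0.09, adjusted p = 0.19), and in FosKO also with only the compared groups in the fit (adjusted p = 0.141). Quantile normalisation also lowered the later rises, to 0.21 at 1 h and 0.18 at 2 h in LysM-Cre and to 0.57 and 0.73 in FosKO, all of them still called. Ccr1 rose at 1 h by 0.35 ± 0.05 (SE, adjusted p = 4.18e-06, limma) in LysM-Cre, to 10.45, 10.36 and 10.40, and by 0.26 in FosKO. At 2 h Ccr1 had returned to its 0 h range in LysM-Cre (-0.01, 95% CI -0.10 to 0.09), while its change of 0.12 in FosKO (adjusted p = 0.032, limma) overlapped the 0 h libraries and was lost under 6 alternatives, among them without FosKO replicate 1 at 0 h (0.08, adjusted p = 0.189), without replicate 2 at 0 h (0.11, adjusted p = 0.084) and without replicate 1 at 2 h (0.09, adjusted p = 0.129).

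Cxcr4 fell from 1 h. In LysM-Cre it was at 8.72, 8.82 and 8.90 at 1 h and at 6.88, 6.89 and 7.10 at 2 h, each library below all 0 h libraries. The change was -0.60 ± 0.08 (SE, adjusted p = 2.83e-06, limma) at 1 h and -2.46 ± 0.08 (5.51-fold lower, adjusted p = 1.79e-16) at 2 h. In FosKO the change was -0.35 at 1 h and -1.54 (2.91-fold lower) at 2 h. Ccr2 fell by 2 h in LysM-Cre, to 9.09, 9.10 and 9.39, a change of -0.88 ± 0.12 (SE, 1.84-fold lower, adjusted p = 3e-06, limma), and in FosKO it changed by -0.67 (1.59-fold lower, adjusted p = 9.07e-05). At 1 h its changes of -0.28 in LysM-Cre (adjusted p = 0.0896, limma) and -0.25 in FosKO (0.138) were not called. Both were called with either replicate block, with adjusted p of 0.0236 and 0.0437 over all groups (limma). The LysM-Cre change was called under 6 alternatives. Cx3cr1 changed by -0.27 at 2 h in LysM-Cre (adjusted p = 0.00894, limma), with overlap between the groups. This call was lost without LysM-Cre replicate 1 at 0 h (-0.15, adjusted p = 0.094) and without replicate 3 at 2 h (-0.22, adjusted p = 0.0515), and in FosKO the change of -0.18 was not called (adjusted p = 0.0666), though the groups did not overlap. It was called with the replicate block over all groups (adjusted p = 0.0377, limma) or within genotype (0.0044) and with only the compared groups (0.0466). C3ar1 changed by -0.12 in FosKO at 2 h (adjusted p = 0.00456, limma), a call lost when only the compared groups entered (adjusted p = 0.0731), and by -0.07 in LysM-Cre, not called. The LysM-Cre change was called with only the compared groups (adjusted p = 0.017, limma), and after quantile normalisation the changes were -0.42 in LysM-Cre and -0.70 in FosKO, both called.

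**Figure D4:**
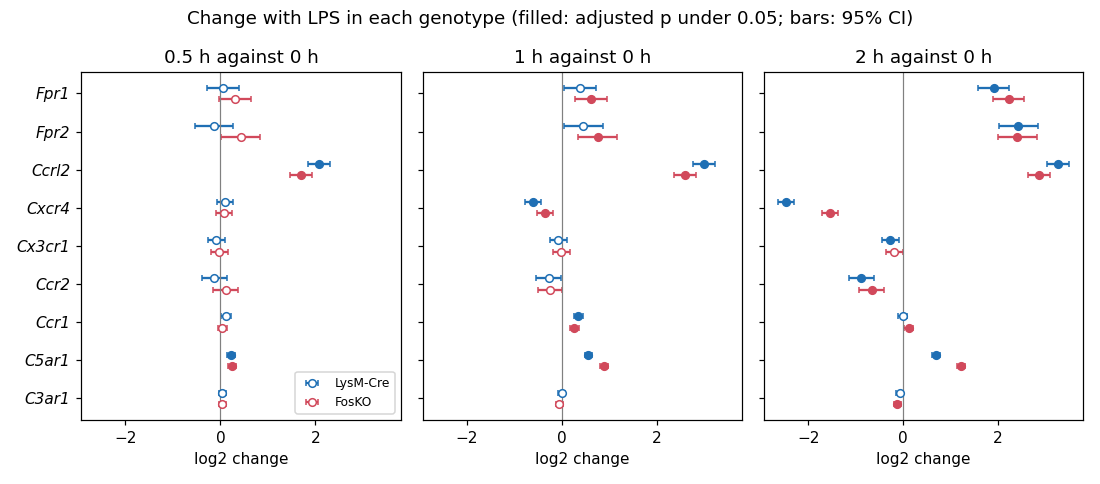
Log2 change against 0 h (horizontal axis) of each receptor (rows) at 0.5, 1 and 2 h of LPS, blue for LysM-Cre and red for FosKO. Points are estimates from 3 libraries against 3, bars are 95% confidence intervals, and filled points have an adjusted p under 0.05. Ccrl2 is the gene farthest to the right at each time, and at 2 h Cxcr4 is farthest to the left, at -2.46 in LysM-Cre and -1.54 in FosKO.

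The third comparison tested whether the response to LPS itself differed between the genotypes, as the FosKO change minus the LysM-Cre change. Cxcr4 and C5ar1 were the receptors called. At 0.5 h, 0 of the 9 were called by limma, where 0.01439% of all genes were called higher and 0.1007% lower, and 1 (Ccrl2) had an unadjusted p under 0.05. At 1 h, 1 was called higher (0.4892% of all genes) and 0 lower (0.7266%), and at 2 h 2 were called higher (7.266%) and 0 lower (7.704%). The fall of Cxcr4 by 2 h was smaller in FosKO by 0.92 ± 0.11 (SE, 95% CI 0.69 to 1.15, adjusted p = 7.21e-06, limma). The rise of C5ar1 was larger in FosKO by 0.32 ± 0.06 (SE, adjusted p = 0.00313, limma) at 1 h and by 0.53 ± 0.06 (95% CI 0.41 to 0.65, adjusted p = 2.05e-06) at 2 h. The difference in the Ccrl2 response was -0.41 at 1 h (adjusted p = 0.418) and -0.40 at 2 h (adjusted p = 0.0959, limma) and was not called. At 2 h it was called after quantile normalisation (-0.52), with either replicate block, and without FosKO replicate 1 at 0 h (-0.53, adjusted p = 0.0178). For Fpr1 the difference in response at 2 h was 0.32 (95% CI -0.16 to 0.79) and for Fpr2 it was -0.02 (95% CI -0.60 to 0.55), neither of them called.

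Related receptors outside the 9 were read from lists chosen by family. Of 8 tested other chemokine receptors, 0 were called higher (19.48% of all genes) and 3 lower (15.91%), among them Ccr3 and Cxcr3, in untreated libraries labelled FosKO by limma. At 0.5 h 1 was called higher (21.24% of all genes) and 2 lower (19.68%). The counts at 1 h were 2 higher (17.98%) and 3 lower (15.88%), and at 2 h 0 were called in either direction (24.36% and 20.26%). Cxcr3, a receptor of interferon-induced chemokines, was lower by 0.59 at 0 h (adjusted p = 5.88e-05, limma). With LPS in LysM-Cre, 4 rose by 2 h (30.56% of all genes), among them Xcr1 by 1.85, and 2 fell (30.21%). Xcr1 rose from a low mean log2 value, 3.73, to 5.58. The 4 include Ccr9, lower still at 2.88 at 0 h, and Ccr3, at 9.20. Of 10 tested other chemoattractant receptors, 3 were higher and 4 lower at 0 h, beside the same shares of all genes. Cmklr1, a chemerin receptor that signals, was higher by 0.69 at 0 h (adjusted p = 5.47e-05, limma) and by 0.34 at 2 h. C5ar2, the second C5a receptor, was lower by 0.68 at 0 h (adjusted p = 9.03e-08) and by 0.27 at 2 h. Gpr183, an oxysterol receptor, was lower by 0.96 at 0 h and by 1.47 at 2 h. S1pr1, a receptor of sphingosine 1-phosphate, fell with LPS in LysM-Cre by 1.48, and its response at 2 h differed between the genotypes by 0.56 (adjusted p = 9.5e-06). In that comparison 2 of the 10 were called higher, S1pr1 and C5ar2 (7.266% of all genes), and 5 lower (7.704%), namely P2ry2, S1pr2, P2ry6, Gpr183 and Ptafr.

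The ligands of the 9 receptors were more often higher than lower. Of 15 tested ligand genes, 9 were called higher (19.48% of all genes) and 3 lower (15.91%) in untreated libraries labelled FosKO, with a median difference of 0.55 against 0.00 over all tested genes, and 8 were higher (24.36%) and 3 lower (20.26%) at 2 h. Saa3, a serum amyloid A gene, was higher by 2.06 at 0 h (4.18-fold, adjusted p = 4.05e-08, limma) and by 1.46 at 2 h. Anxa1, the annexin A1 gene, went the other way, with a difference of -0.28 at 0 h (adjusted p = 9.73e-08, limma), and was called lower at every time. Ccl5, a ligand of CCR1, was higher by 1.96 at 0 h (3.89-fold), and at 2 h its difference of 0.47 was not called (adjusted p = 0.0644). Ccl12, a ligand of CCR2, was higher by 1.57 before and by 1.58 after 2 h of LPS, while Ccr2 itself was lower. Cx3cl1, the ligand of CX3CR1, was lower by 0.25 at 0 h and by 0.75 at 2 h, as was its receptor. With LPS in LysM-Cre, 12 of the 15 ligands rose by 2 h (30.56% of all genes) and 0 fell (30.21%), Ccl5 by 4.14 and Cx3cl1 by 3.20.

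The genes with the pattern most like each receptor were found by Pearson's r over the 8 group means, among 10604 genes. These are descriptions over 8 means that share libraries and normalisation. Ccrl2 was most like Il10ra and Gadd45b (r = 0.991 and 0.990), Cxcr4 most like Cdkn2d (0.997), and Fpr2 most like Parp14 and Otub1 (0.996 and 0.994). Parp14 went from 13.93 at 0 h to 15.26 after 2 h in LysM-Cre and from 14.73 to 15.88 in FosKO. Cx3cr1 was most like Msl3 and Matk (0.997 and 0.994), Ccr2 like Brf1 and Tmem198b (0.991 each), C5ar1 like 2610001J05Rik and Bag6 (0.999 and 0.987), Fpr1 like Gm8995 and Srpr (0.996 each), Ccr1 like Pde8a and Pmp22 (0.988 and 0.975) and C3ar1 like Gpn3 and Suv420h1 (0.977 and 0.964).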

How the data were processed

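BMDM mRNA was sequenced from a single end (TruSeq, HiSeq 2500). The authors mapped and counted reads with STAR 2.5.2a and RSEM 1.2.31 on mm10 and normalised with DESeq2, for which the submitters' processing notes give version 1.16.1. An earlier DESeq2 version is given in the methods. The methods name RefSeq genes, whereas the table holds Ensembl identifiers, 99.6% of which were found in GENCODE vM21. The deposited values were log2 values, already normalised, from -2.22 to 19.39. They resemble a regularised log, in which differences of genes with few reads are understated. The methods describe strand-specific reads and a typical yield, but the table gives no depth per library, so no counting interval was computed, and the spread between libraries is the error given. Within groups, r between libraries was 0.995 to 0.998 across genes.

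Genes with 2 to the power of the value of at least 5 in at least 3 libraries were tested, 13901 in number. One limma model (limma 3.58.1, R 4.3.3) was fitted to the 24 libraries, with 8 group means, a variance trend and 16 residual degrees of freedom, from which 13 comparisons were drawn. The fit was also tried on simulated data, the outcome of which is not given here. The design had also provided for linear values, but the table was in log2. Genes named are the 9 receptors, the 2 genes most like each, and from the related lists the called genes with the 2 largest rises and falls at 0 h, at 2 h and with LPS in LysM-Cre. Some genes that this rule names are not reported here. A few more were named after their values were seen (Ms4a4c, Ly6c2, Csf3r, Ccr1l1, Itgax). The receptors, lists and tests were chosen with earlier results of these data known. Deviations of same-numbered libraries correlated at over 0.1 in every pair only for LPS at 0.5 h in FosKO (0.134 to 0.269). Alternatives were quantile normalisation, TMM factors, filters, a pseudocount of 1, 18S terms, replicate blocks, fits of only the compared groups, no variance trend and leaving out each library.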

Additional observations from a re-analysis of the deposited data

Results flagged for a closer look

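For 2 receptors the response to LPS differed between the genotypes by the test of the difference itself (limma). The fall of Cxcr4 at 2 h was smaller in the libraries labelled FosKO by 0.92 on the log2 scale. The rise of C5ar1 was larger in those libraries by 0.32 at 1 h and by 0.53 at 2 h. These 3 values kept their direction and their call under each alternative run.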

How the results depend on the processing

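Of 117 receptor values (9 genes in 13 comparisons), 56 were called, 47 of these were called in the same direction under every alternative run, and 0 of the called values changed sign. Values near 0 changed sign without a call unless stated. With only the high 18S libraries, C3ar1 in FosKO against LysM-Cre was 0.011 at 0.5 h, C5ar1 was 0.035 at 1 h (0.014 with an 18S term), and C3ar1 at 1 h of LPS in LysM-Cre was -0.019. After quantile normalisation Ccrl2 in FosKO against LysM-Cre was -0.051 at 2 h, and C3ar1 at 1 h of LPS in LysM-Cre was -0.23 and was called (adjusted p = 9.42e-06, limma), as was that in FosKO (-0.32). When each library was left out in turn, C3ar1 in FosKO against LysM-Cre ranged from -0.060 to 0.0095 untreated and from -0.055 to 0.013 (0.5 h), Ccrl2 from -0.032 to 0.24 (0.5 h), C5ar1 from -0.021 to 0.015 (1 h), and C3ar1 at 1 h of LPS in LysM-Cre from -0.0050 to 0.017.

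Counts of called receptors moved from 2 to 1 after quantile normalisation for LPS at 0.5 h in each genotype, and to 1 with only the compared groups for FosKO. At 1 h in LysM-Cre they moved from 4 to 8 after quantile normalisation and to 7 with only the compared groups or with the replicate block (over all groups or within genotype). For the difference in response they moved from 1 to 2 at 1 h with the block within genotype, which added Ccrl2, and from 2 to 4 at 2 h after quantile normalisation, which added Ccrl2 and C3ar1 (-0.28). Counts of all called genes moved with the high 18S libraries alone, from 4708 to 2994 for FosKO against LysM-Cre at 1 h, from 4970 to 3009 for LPS at 1 h in LysM-Cre, and for the difference in response from 16 to 9 (0.5 h) and from 169 to 93 (1 h). In these fits LysM-Cre at 1 h was 1 library, with the spread taken from the other groups. With only the compared groups they moved from 823 to 301 for LPS at 0.5 h in FosKO, from 16 to 6 and from 169 to 112 for the difference at 0.5 and 1 h. That at 0.5 h was 25 after quantile normalisation and 25 with the replicate block within genotype. Leaving out each library gave 542 to 960 for LPS at 0.5 h in FosKO, the lowest without FosKO replicate 3 at 0.5 h, and 9 to 24 for the difference at 0.5 h, the lowest without LysM-Cre replicate 3 at 0.5 h. Fewer libraries entered the fits with the high 18S libraries, the compared groups or a library left out. For quantile normalisation and the replicate block, which used all 24, the cause was not tested.

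Same-numbered libraries correlated at over 0.1 in every pair only for LPS at 0.5 h in FosKO, where the block changed no receptor call. In each LPS comparison, 2 or 3 of the 3 libraries correlated best with the library of their own number, at r from 0.013 to 0.269. The labels do not say whether the numbers mark pairs, and the main fit used no pairing. With the block within genotype, the Ccrl2 difference in response at 2 h had an adjusted p of 0.00912 (limma), against 0.0959 without it. For FosKO against LysM-Cre at 1 h same-numbered libraries correlated as low as -0.527. The replicate block over all groups brought Cxcr4 in FosKO against LysM-Cre at 1 h to an adjusted p of 0.0489 (limma) at the same difference of 0.17, and that of Cx3cr1 for LPS at 2 h in FosKO to 0.0377. Depth per library is unknown, and so it could not be weighed against the low values of Fpr1 and Fpr2.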

Other observations

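Genes that act below these receptors were also read. Of 24 tested genes of G protein signalling and desensitisation, 4 were called higher (19.48% of all genes) and 9 lower (15.91%) in untreated libraries labelled FosKO, and 11 higher (24.36%) and 8 lower (20.26%) at 2 h. Rgs1, which speeds the shut-off of Gi proteins, was higher by 0.57 at 0 h (adjusted p = 5.42e-07, limma) and by 1.49 at 2 h. Rgs2 was higher by 0.18 at 0 h and by 1.11 at 2 h. Its response to LPS at 2 h differed between the genotypes by 0.93 (adjusted p = 2.46e-10), and it fell with LPS in LysM-Cre by 1.09. Rgs16 was lower by 0.46 at 0 h and by 0.79 at 2 h, and Grk5, a receptor kinase, was lower by 0.46 at 0 h.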
